A study of Mus musculus with 18 samples.

Results

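The 10 genes described here are the MHC class II antigen presentation genes H2-Aa, H2-Ab1, H2-Eb1, H2-DMa, H2-DMb1, Cd74 and Ciita and the dendritic cell genes Flt3, Kmo and Itgax. They were taken by name from 49671 gene models, and all 10 were among the 14080 genes with enough counts to be tested. Their transcripts were followed in sorted tumor T cells, where they serve as a measure of RNA from antigen-presenting cells. CD8+ and CD4+ T cells were sorted for RNA sequencing from melanomas of the mouse line B16f10-OVA, which carries ovalbumin, grown for 12 days under the skin of B6 mice. All mice had floxed miR-155 alleles, without Cre ("floxed") or with Cre driven by the CD4 promoter, which is active in developing T cells of both lineages ("deficient"), so the deletion is aimed at T cells and not at antigen-presenting cells. The last set ("treated") were deficient mice that received checkpoint antibodies, to PD-1/PD-L1 and to CTLA-4, on days 3, 6 and 9. Deletion here means deficient against floxed cells, and blockade means treated against untreated deficient cells. Floxed mice with antibodies were not analysed here. There were 3 libraries for each of 6 groups, each library pooling 2 to 3 tumors before the sort, and the gates of the sort are not given in the sources used here.

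MHC class II molecules are pairs of an alpha and a beta chain that show peptides from engulfed proteins to CD4+ T cells. Dendritic cells, macrophages and B cells make them, while mouse T cells make little. The invariant chain, the product of Cd74, escorts new class II molecules, and H2-DM (H2-DMa with H2-DMb1 or H2-DMb2) then helps exchange its last fragment for a peptide. CIITA, the product of Ciita, is the co-activator that switches this gene set on and is itself induced by interferon gamma. It does not bind DNA alone but docks on factors that sit on short promoter elements, the X box (bound by the RFX complex) and the Y box (bound by NF-Y). Flt3 is the receptor of a growth factor on which dendritic cells depend, Kmo is an enzyme of tryptophan breakdown by the kynurenine route, and Itgax encodes the integrin CD11c, a common dendritic cell marker that macrophages, natural killer cells and activated CD8+ T cells can also carry.

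The core letters of both boxes were searched in the members' promoters. In RefSeq's promoter table for GRCm38.p6 (250 bases before to 50 after a gene's start), an X core (GNAACT) followed 15 to 35 bases later by a Y core (TGATTGG) on the same strand was found for H2-Aa, H2-Eb1 and H2-DMb1. The windows of H2-Aa and H2-Eb1 are shown because these chains moved together below, with both cores in capitals and 15 bases on either side.
H2-Aa, chr17:34287852-34287919, minus strand: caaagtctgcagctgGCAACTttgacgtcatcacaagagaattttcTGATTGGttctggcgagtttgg
H2-Eb1, chr17:34305761-34305827, plus strand: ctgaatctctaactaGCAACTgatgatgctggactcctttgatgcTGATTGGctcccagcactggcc
The cores lie 25 bases apart in H2-Aa and H2-DMb1 and 24 in H2-Eb1, and the Y core ends 43, 54 and 56 bases before the RefSeq start of H2-Aa, H2-Eb1 and H2-DMb1. Of 32851 promoters of 300 bases, searched on both strands, 42.8% held the X core and 7.82% the Y core. The pair in this order and spacing was in 66 of them, or 0.201%. The pair was not found in the windows of Flt3 and Itgax, which says only that these letters are not there. For H2-DMa and Kmo the table's windows do not hold the start of the gene model in the deposited files, so the promoters at those starts were not searched. The motifs were chosen after the promoters had been read, and a match is not a binding site. H2-Ab1, Cd74 and Ciita had no entry in that table.

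The genes are spread over several chromosomes (GRCm38, coordinates of the deposited files, counted over exons). H2-Aa (ENSMUSG00000036594, chr17:34282744-34287827, minus strand), H2-Ab1 (ENSMUSG00000073421, chr17:34263209-34269418), H2-Eb1 (ENSMUSG00000060586, chr17:34305877-34316199), H2-DMa (ENSMUSG00000037649, chr17:34135182-34139101) and H2-DMb1 (ENSMUSG00000079547, chr17:34153072-34160230) share the MHC region of chromosome 17. Ciita (ENSMUSG00000022504) is on chromosome 16, Cd74 (ENSMUSG00000024610) on 18, Flt3 (ENSMUSG00000042817) on 5, Kmo (ENSMUSG00000039783) on 1 and Itgax (ENSMUSG00000030789) on 7. H2-DMb1 and H2-Eb1 each have a close relative next to them (H2-DMb2, H2-Eb2), and how reads that fit both were counted is not given in the sources used here, so values of these 2 members are less certain.

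Levels are in CPM, counts scaled to a common library size with TMM factors. Libraries held from 3198435 to 11645432 counts, and 3 counts, the limit that a count of 0 allows, equal 0.258 to 1.24 CPM. Ribosomal-like models took more than 5% of the counts of 3 libraries, called ribosomal-rich below, which were replicate 1 of floxed CD8 (5.82%), replicate 2 of treated CD8 (25.6%) and replicate 3 of deficient CD4 cells (11.9%). Calls of members that changed without them are given with the results. Mir155hg, the host transcript of miR-155, was at 9.06 to 20.5 CPM in floxed CD8 and 4.87 to 8.22 CPM in floxed CD4 libraries, against 0 to 1.90 CPM in deficient and treated libraries. The 12 general T cell genes of a marker list summed to 2896 to 5790 CPM over the libraries, and their changes in the deletion and blockade comparisons are given beside those of the class II genes. Cd4 did not exceed 3.13 CPM in any CD8 library and was at 233 to 1089 CPM in CD4 libraries. Cd8a was at 623 to 1446 CPM in CD8 libraries but also at 14.6 to 149 CPM in the floxed CD4 libraries, where deficient CD4 libraries had 0.136 to 0.282 CPM.

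Class II transcripts were present in every T cell sort, least in treated and floxed CD8 and most in floxed CD4 cells. The 7 class II members together took 0.0362 to 0.0482% of counts in floxed CD8, 0.0935 to 0.180% in deficient CD8 and 0.0246 to 0.0493% in treated CD8 libraries. In CD4 libraries they took 0.779 to 1.65% in floxed, 0.355 to 0.489% in deficient and 0.236 to 0.364% in treated cells. H2-Aa, the alpha chain of I-A, spanned 50.6 to 4890 CPM over the 18 libraries, a 96.7-fold range. In bulk sorts such as these, fewer antigen-presenting cells and less RNA per cell cannot be told apart. Which cells the class II RNA came from was not tested.

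**Figure D1:**
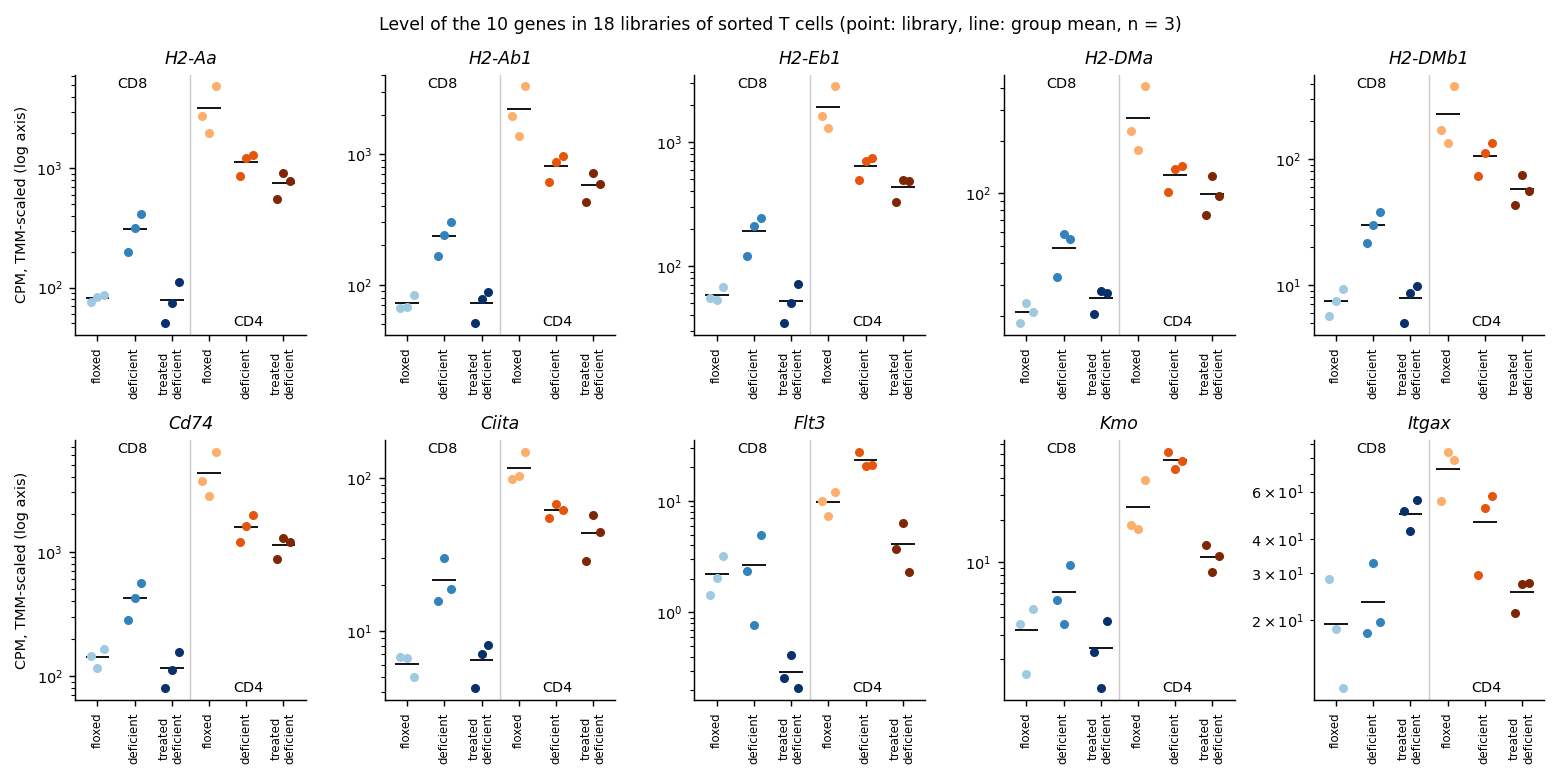
Level of each of the 10 genes (CPM, TMM-scaled, log axis, each panel with its own range) in the 3 libraries of each of 6 groups. Points are libraries and lines are group means. The 7 class II genes share 1 profile, highest in floxed CD4 cells, while Flt3 and Kmo are highest in deficient CD4 cells and Itgax is higher in treated CD8 than in the other CD8 cells.

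The class II genes shared an order of groups, apart from floxed and treated CD8 cells, which changed places. H2-Aa stood (mean ± SD, n = 3) at 3218 ± 1498 CPM in floxed CD4, 1128 ± 236 in deficient CD4, 752 ± 179 in treated CD4, 309 ± 107 in deficient CD8, 81.8 ± 5.62 in floxed CD8 and 78.7 ± 30.2 CPM in treated CD8 cells. Deficient and treated CD4 libraries overlapped, as did floxed and treated CD8 libraries, and the other neighbours in this order did not. For Ciita, treated CD4 and deficient CD8 libraries overlapped as well. Per kilobase of exon, Cd74 was the most abundant member in floxed CD4 cells with 3044 CPM per kb. H2-Aa (1717), H2-Eb1 (1617) and H2-Ab1 (1347 CPM per kb) followed, then the peptide exchange chains H2-DMa (165) and H2-DMb1 (154), and far below them Ciita (22.1), Itgax (15.1), Kmo (5.26) and Flt3 (1.60 CPM per kb). H2-Ea-ps, the annotated pseudogene for the alpha chain of I-E, which B6 mice do not make, had 0 counts in all 18 libraries, so H2-Eb1 was counted without its partner.

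The first comparison asked what differed between deficient and floxed CD8 cells. Deficient CD8 cells held more class II RNA, about 2 to 4 times as much. H2-Aa was at 75.7, 83.1 and 86.7 CPM in floxed and 199, 317 and 411 CPM in deficient CD8 libraries. Its partner H2-Ab1 was at 66.4, 67.4 and 83.9 against 166, 243 and 301 CPM, and the invariant chain Cd74 at 146, 115 and 165 against 283, 427 and 560 CPM. For each of these genes all deficient libraries lay above all floxed ones, as was so for 17.8% of the 14080 genes tested. The quasi-likelihood test of edgeR, with Benjamini-Hochberg adjustment over all genes, called 7 of the 10 members higher and 0 lower, where it called 9.65% of all genes higher and 9.61% lower. The median log2 fold change of the 10 members was 1.64, against -0.01 over all genes tested.

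The called members were the 7 class II genes. On the log2 scale H2-Aa rose by 1.92 ± 0.37 (SE, adjusted p = 0.0025 in edgeR's quasi-likelihood test), H2-Ab1 by 1.71 ± 0.33, H2-Eb1, the beta chain of I-E, by 1.71 ± 0.34 and Cd74 by 1.58 ± 0.34. The peptide exchange chains H2-DMb1 and H2-DMa rose by 2.01 ± 0.43 and 1.22 ± 0.30. Ciita, the co-activator, was at 6.69, 6.65 and 4.97 CPM in floxed and 15.8, 30.1 and 18.8 CPM in deficient libraries, a rise of 1.80 ± 0.30 with the smallest adjusted p of the 10 (0.000396, edgeR). The dendritic cell members were not called. Flt3 had a log2 fold change of 0.26 ± 0.51, Kmo of 0.95 ± 0.44 (adjusted p = 0.14 by edgeR) and Itgax of 0.26 ± 0.31. Without the 3 ribosomal-rich libraries 6 members were called, the call of H2-DMa being lost (adjusted p = 0.0818 by edgeR), as it was without floxed CD8 replicate 1 alone (0.0595). Of the 12 general T cell genes, 5 fell and 0 rose in this comparison (median -0.32), with sums of 4069 to 5184 CPM in floxed and 3416 to 3602 CPM in deficient CD8 libraries. Their part in the class II values was not tested.

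**Figure D2:**
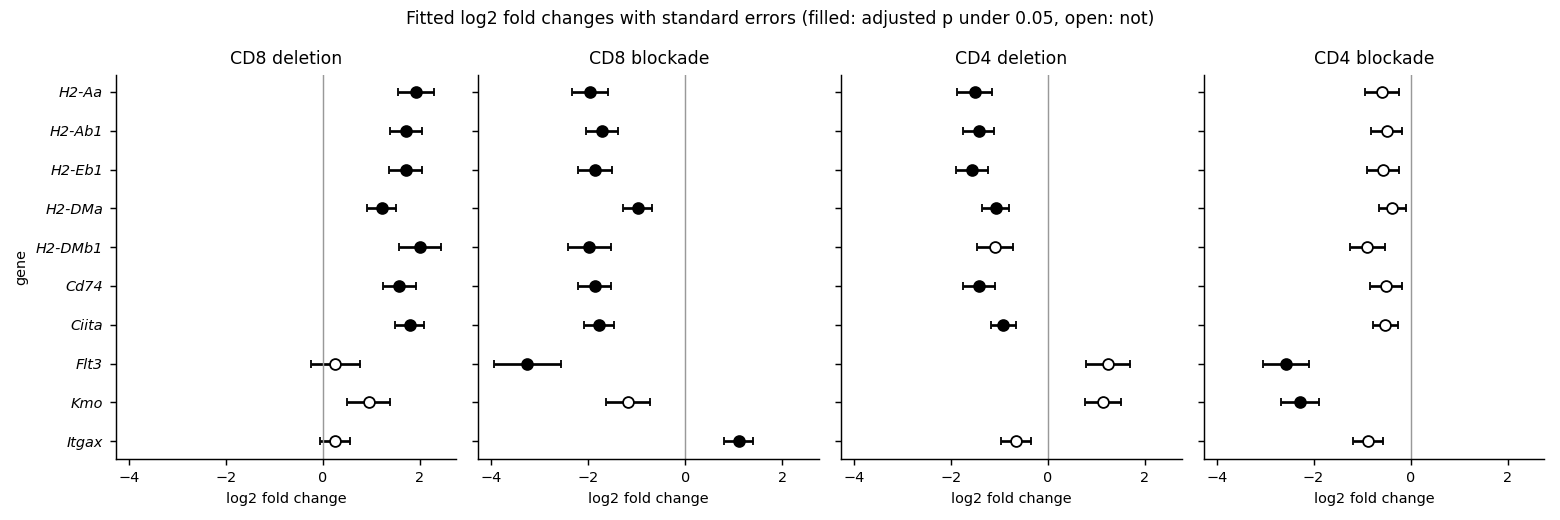
Fitted log2 fold change of each gene (x axis) with its standard error in the 4 main comparisons, n = 3 libraries per group. Filled points passed an adjusted p of 0.05 in edgeR's quasi-likelihood test. The 7 class II genes lie to the right of 0 in the CD8 deletion and to the left of 0 in the CD8 blockade and CD4 deletion, while Itgax lies to the right in the CD8 blockade.

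With the antibodies, class II RNA in deficient CD8 cells fell to values that overlapped those of floxed CD8 cells. H2-Aa was at 50.6, 74.8 and 111 CPM in the treated libraries, Cd74 at 80.1, 113 and 155 CPM and Ciita at 4.22, 7.03 and 8.06 CPM. None of these overlapped the untreated deficient libraries, and 22.1% of all tested genes were lower without overlap in that way. In the blockade comparison edgeR's quasi-likelihood test called 8 of 10 members lower and 1 higher, where it called 5.53% of all tested genes lower and 8.25% higher. The median log2 fold change was -1.83, against -0.03 over all genes. H2-Aa fell by 1.97 ± 0.37, Cd74 by 1.87 ± 0.34, H2-Eb1 by 1.87 ± 0.35, H2-Ab1 by 1.72 ± 0.33, H2-DMb1 by 1.98 ± 0.44, Ciita by 1.78 ± 0.31 and H2-DMa by 0.98 ± 0.30 on the log2 scale. The largest adjusted p among them was that of H2-DMa (0.0389, edgeR). This call was lost with limma voom (0.0583), without either of deficient CD8 replicates 2 and 3, without any 1 of the treated CD8 libraries (adjusted p from 0.0811 to 0.170) and without the 3 ribosomal-rich libraries (0.123). The call of H2-DMb1 was lost without treated CD8 replicate 1 (0.0611). Against 9 members called in all, 8 were called without the ribosomal-rich libraries, and 6 to 8 when any 1 library was left out. Of the 12 general T cell genes, 5 rose and 0 fell (median 0.48), and their sum was 5302 to 5541 CPM in treated CD8 libraries. Their part in the class II fall was not tested.

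Treated and floxed CD8 cells were set against each other directly. The class II members had log2 fold changes from -0.29 (Cd74, SE 0.34) to 0.24 (H2-DMa, SE 0.31), and none was called. For H2-Aa the value was -0.06 ± 0.36. None of the 7 had an unadjusted p under 0.05, and neither DESeq2 nor limma voom called any. Only 2 of 10 members were called by edgeR's quasi-likelihood test, Flt3 lower (-3.01 ± 0.70) and Itgax higher (1.36 ± 0.31), where 2.32% of all tested genes were called lower and 2.69% higher. Flt3 was not called by limma voom (0.109), in a fit of the CD8 libraries alone (0.0661) or without the ribosomal-rich libraries (0.0955). Both calls were lost without any 1 of the 3 treated CD8 libraries (adjusted p from 0.0574 to 0.0915). Over all tested genes the calls fell from 706 to 141, 111 and 247 without treated CD8 replicates 1, 2 and 3. Without the ribosomal-rich libraries they fell to 58. The deletion and blockade comparisons share the deficient CD8 libraries, so their opposite signs are not independent of each other.

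CD4 cells showed the opposite order after the deletion. H2-Aa was at 2768, 1997 and 4890 CPM in floxed and 861, 1218 and 1307 CPM in deficient CD4 libraries. H2-Ab1 was at 1945, 1372 and 3296 against 610, 864 and 974 CPM, and Cd74 at 3681, 2805 and 6389 against 1191, 1605 and 1983 CPM. Every floxed library was above every deficient one, as for 14.7% of all tested genes, and floxed CD4 replicate 3 was the highest for each of the 7 class II genes. By edgeR's quasi-likelihood test 6 of the 10 members were called lower and 0 higher, where 7.06% of all tested genes were called lower and 4.61% higher. The median log2 fold change of the members was -1.09, against 0.01 over all genes. Of the 12 general T cell genes 0 were called (median 0.15). Their sums were 4557, 4330 and 2896 CPM in floxed CD4 replicates 1, 2 and 3, the last being the lowest of the 18 libraries. Deficient CD4 libraries had 4227 to 5001 CPM. Their part in the class II fall was not tested.

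The members that fell were H2-Eb1 (by 1.56 ± 0.33 on the log2 scale), H2-Aa (1.51 ± 0.36), H2-Ab1 (1.43 ± 0.32), Cd74 (1.43 ± 0.33), H2-DMa (1.08 ± 0.28) and Ciita (0.92 ± 0.26). Their adjusted p ran from 0.00767 for H2-Eb1 to 0.0269 for Ciita (edgeR). H2-DMb1, at -1.10 ± 0.37, was not called (adjusted p = 0.0689, edgeR). DESeq2 and limma voom called all 7 class II genes lower. The edgeR calls depended on the libraries used. Without floxed CD4 replicate 3 edgeR called only H2-Eb1 lower, and Kmo higher (1.58, adjusted p = 0.0191). Without deficient CD4 replicate 1 it called only H2-Eb1, and without the 3 ribosomal-rich libraries it called H2-Eb1, H2-Ab1 and Cd74 lower. The value of H2-Aa was in these settings -1.09, -1.37 and -1.63 (adjusted p = 0.0784, 0.0738 and 0.0626). Calls over all tested genes fell from 1643 to 783, 818 and 1442 in the same settings. H2-Eb1 was called in every setting tried (highest adjusted p 0.0479, edgeR).

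The opposite direction in CD8 and CD4 cells was itself tested. The deletion effect in CD8 cells minus that in CD4 cells was 3.43 ± 0.51 on the log2 scale for H2-Aa (adjusted p = 0.000685 in edgeR's quasi-likelihood test), 3.28 ± 0.48 for H2-Eb1, 3.14 ± 0.46 for H2-Ab1 and 3.01 ± 0.48 for Cd74. It was 3.11 ± 0.56 for H2-DMb1, 2.72 ± 0.40 for Ciita and 2.30 ± 0.41 for H2-DMa. These 7 of 10 members were called, all with the higher effect in CD8 cells. Over all tested genes the share called was 6.89% with the higher effect in CD8 and 4.72% with the lower. The differences for Flt3 (-0.98 ± 0.68), Kmo (-0.18 ± 0.58) and Itgax (0.92 ± 0.43) were not called. Without the ribosomal-rich libraries Itgax was called too (1.48, adjusted p = 0.0425, edgeR). Over 21 other settings the number of members called was 7 or 8. Of the 12 general T cell genes 0 were called with the higher and 4 with the lower effect in CD8 cells (median -0.52).

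In CD4 cells the class II members were not called with the antibodies. H2-Aa was at 559, 911 and 785 CPM and Cd74 at 879, 1295 and 1204 CPM in treated CD4 libraries, which overlapped the untreated deficient ones. The log2 fold changes of the 7 class II members lay between -0.89 ± 0.37 (H2-DMb1) and -0.38 ± 0.28 (H2-DMa), and edgeR's quasi-likelihood test called none. Of the 7, 1 had an unadjusted p under 0.05, and neither DESeq2 nor limma voom called any. Of the 12 general T cell genes 0 were called in the CD4 blockade (median 0.33). Against floxed CD4 cells, treated CD4 cells were lower in 8 of 10 members and higher in 0, where 8.08% of all tested genes were called lower and 4.08% higher. The log2 falls ran from 1.43 ± 0.27 for Ciita to 2.14 ± 0.34 for H2-Eb1, with H2-Aa at 2.10 ± 0.36 and Itgax at 1.53 ± 0.31 among them. Of the 12 general T cell genes 6 rose and 0 fell between these groups. The blockade effect on the class II members differed between CD8 and CD4 cells by -0.60 to -1.38. None of these 7 differences was called by the main edgeR fit, DESeq2 or limma voom, although 5 had an unadjusted p under 0.05. With the replicate number as a block, edgeR called 4 members in that contrast, H2-Aa, H2-Eb1 and Cd74 beside Itgax. With the tumor pool as a block, added after the data had been seen, edgeR called 5. These were H2-Aa (adjusted p = 0.0249), H2-Ab1 (0.00512), H2-Eb1 (0.00373) and Cd74 (0.00174) beside Itgax.

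In every condition the CD4 sorts held more class II RNA than the CD8 sorts. In floxed mice edgeR's quasi-likelihood test called all 10 members higher in CD4 cells, where 20.2% of all tested genes were called higher and 18.9% lower. H2-Aa was higher by 5.30 ± 0.42 on the log2 scale there, a fold of 39.3. In deficient mice the test again called 10 of 10 higher (9.39% of all tested genes were called higher and 6.21% lower), with H2-Aa at 1.87 ± 0.36, and in treated mice 9 of 10 (11% of all tested genes were called higher), with H2-Aa at 3.25 ± 0.39. The Itgax call in deficient mice (0.98 ± 0.30, adjusted p = 0.0364, edgeR; libraries overlapped) was lost without deficient CD8 replicate 1 or 3 or deficient CD4 replicate 2 or 3 (0.134 to 0.157), without the ribosomal-rich libraries (0.75, 0.108) and with only the libraries compared (0.052). Itgax was the 1 member that was lower in treated CD4 than in treated CD8 cells (-0.99 ± 0.30, adjusted p = 0.0277 by edgeR), where 9.36% of all tested genes were called lower. That call was lost without treated CD8 replicate 1 or 3 or any 1 of the treated CD4 libraries (0.0562 to 0.109).

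Flt3 and Kmo did not follow the class II genes. Flt3 was highest in deficient CD4 libraries, at 27.7, 20.8 and 20.9 CPM, against 10.1, 7.40 and 12.2 CPM in floxed and 3.75, 6.31 and 2.29 CPM in treated CD4 libraries. Kmo was at 61.9, 46.7 and 53.1 CPM in deficient, 18.5, 17.3 and 38.7 CPM in floxed and 13.2, 8.42 and 11.1 CPM in treated CD4 libraries. None of these groups overlapped for either gene. From floxed to deficient CD4 cells 13.2% of all tested genes were higher without overlap, and from deficient to treated CD4 cells 9.89% were lower. In edgeR's quasi-likelihood test the step from floxed to deficient CD4 cells was 1.24 ± 0.45 for Flt3 (adjusted p = 0.0799) and 1.13 ± 0.37 for Kmo (adjusted p = 0.0525), so neither passed. Both were called by limma voom (0.00552 for Flt3 and 0.00131 for Kmo) and in a fit of the compared libraries alone (0.0293 and 0.0175).

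With the antibodies Flt3 and Kmo fell in CD4 cells, by 2.57 ± 0.48 and 2.28 ± 0.39 on the log2 scale (adjusted p = 0.039 and 0.0281, edgeR's quasi-likelihood test). They were the 2 of 10 members called in the CD4 blockade, where the test called 8 of 14080 genes lower (0.0568%) and 12 higher (0.0852%). The median of the 10 members was -0.58, against -0.01 over all genes. The calls depended on single libraries: leaving out any 1 of the 6 libraries compared ended the call of Flt3 (adjusted p from 0.0587 to 0.256), and that of Kmo was lost without deficient CD4 replicate 1 (0.211) or 3 (0.0573) or treated CD4 replicate 1 (0.0821) or 2 (0.196). Without the 3 ribosomal-rich libraries 0 members were called, although the fold changes were about the same (-2.63 for Flt3 and -2.29 for Kmo). Calls over all tested genes moved too, from 20 to between 0 and 106 with 1 library left out. They were 4 without the ribosomal-rich libraries, and 0 without deficient CD4 replicate 1 or treated CD4 replicate 1.

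In CD8 cells Flt3 was near the limit of detection. The floxed libraries were at 1.42, 2.05 and 3.20 CPM, the deficient ones at 2.35, 0.765 and 4.91 CPM and the treated ones at 0.258, 0.413 and 0.209 CPM. The treated values rest on 3, 1 and 2 counts, at or under the floor of 3 counts per library. The blockade fall of Flt3 in CD8 cells was 3.26 ± 0.69 on the log2 scale (adjusted p = 0.00323 in edgeR's quasi-likelihood test, 0.0593 by limma voom), a fitted value that rests on 6 counts in the treated group and depends on the prior count. Kmo stood at 5.29, 3.57 and 9.50 CPM in deficient and 2.24, 1.24 and 3.77 CPM in treated CD8 libraries, a difference of -1.18 ± 0.45 that was not called (adjusted p = 0.0887, edgeR). DESeq2 and a replicate block called it (0.0358 and 0.0126).

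Itgax had an order of its own. It was at 28.5, 18.6 and 11.2 CPM in floxed CD8, 17.9, 32.6 and 19.6 CPM in deficient CD8 and 50.7, 43.0 and 55.6 CPM in treated CD8 libraries, so only the treated libraries stood clear. Over all tested genes, 22% were higher in treated than in deficient CD8 libraries without overlap. With the antibodies it rose in CD8 cells by 1.10 ± 0.30 on the log2 scale (adjusted p = 0.0218 in edgeR's quasi-likelihood test), the 1 member that did. In CD4 cells it was at 55.3, 84.4 and 78.5 CPM in floxed, 29.4, 52.1 and 57.9 CPM in deficient and 21.3, 27.4 and 27.4 CPM in treated libraries, and the blockade value was -0.87 ± 0.31 (adjusted p = 0.285, edgeR). The difference between the blockade effects in CD8 and CD4 cells was 1.97 ± 0.43 (adjusted p = 0.04, edgeR). It was the only member that the main fit called in that contrast, where 0.575% of all tested genes were called with the higher effect in CD8 cells and 0.227% with the lower. The CD8 rise lost its call without deficient CD8 replicate 1 or 3 or treated CD8 replicate 1 or 3 (adjusted p from 0.0633 to 0.0949). The call of the difference was lost without any 1 of 10 of the 12 libraries in it (0.0714 to 0.122) and without the ribosomal-rich libraries (0.0681).

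Within a library H2-Aa, H2-Ab1, H2-Eb1, H2-DMb1 and Cd74 kept nearly constant proportions, and Ciita and H2-DMa did so less. The log2 ratio of H2-Eb1 counts to H2-Aa counts (0.5 added to each) ranged over 0.50 across all 18 libraries, that of Cd74 over 0.57, H2-Ab1 over 0.64 and H2-DMb1 over 0.94, while the log2 level of H2-Aa itself ranged over 6.60. For every 100 H2-Aa counts there were 135 to 172 Cd74 counts in the group means. Ciita ranged over 1.67 and H2-DMa over 2.32: H2-DMa had 8.46 counts per 100 H2-Aa counts in floxed CD4, 16.1 in deficient CD8, 25.6 in floxed CD8 and 33.4 in treated CD8 cells. The dendritic cell genes varied more against H2-Aa, Kmo over 3.43, Flt3 over 4 and Itgax over 5.96. Kmo had 4.83 counts per 100 H2-Aa counts in deficient CD4 but 0.770 in floxed CD4 cells, and Itgax had 66.2 in treated CD8 but 7.64 in deficient CD8 cells. The proportions share a denominator and are given as a description.

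**Figure D3:**
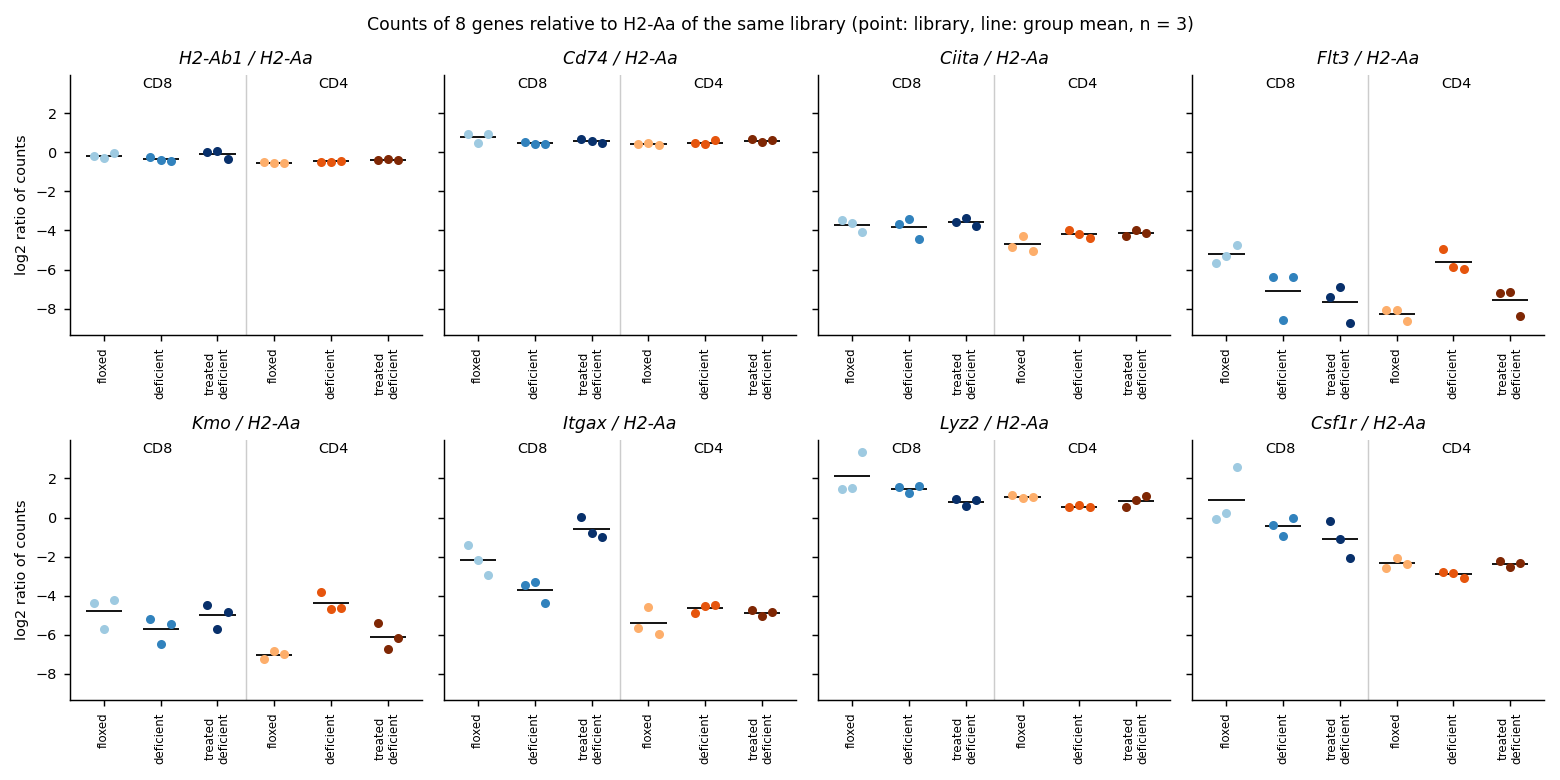
Log2 ratio of the counts of 8 genes to the counts of H2-Aa in the same library (y axis, 1 scale for all panels), by group. Points are libraries and lines are group means. H2-Ab1 and Cd74 lie nearly flat across the 6 groups, Ciita ranges over 1.67 units, and Flt3, Kmo and Itgax move by several units.

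Genes with the most similar profile over the 18 libraries were sought among all tested genes, by the root mean square (RMS) difference of centred log2 CPM. For H2-Aa, whose own SD was 1.98, the nearest were the members H2-Eb1 (0.13), Cd74 (0.16) and H2-Ab1 (0.18). H2-DMb1 was at 0.25. The class II members Ciita (0.47, rank 36) and H2-DMa (0.70, rank 136) were farther from H2-Aa than many genes that are no members. The nearest that are no members were Pirb, an inhibitory receptor (0.25), Plbd1 (0.27), the protease Ctsh (0.29), the IgG receptor gene Fcgr3 (0.35) and Gda (0.36). Ciita was nearest, among genes that are no members, to Plbd1 (0.32), Tifab (0.36), Naaa (0.37), Fcgr2b (0.38) and Tgfbi (0.39), and its nearest member was H2-Ab1 (0.37). The nearest gene to Flt3 was Kmo (0.74), followed by Kynu, the next enzyme of the kynurenine route (0.76), and H2-DMb2 (0.82). Kmo had Nckap5 (0.64), Kynu (0.67), Ppfia4 (0.69), Mycl (0.72) and Spib (0.72) nearest among genes that are no members. The best matches of Itgax, Cd200r4 and Spsb2, differed from it by 0.49, where its SD was 0.78. H2-Aa was at 1.03 from Kmo, 1.21 from Flt3 and 1.74 from Itgax.

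The rest of the class II pathway moved with the members in part. Of 15 further genes in a pathway list (14 tested), edgeR's quasi-likelihood test called 6 higher and 1 lower in the CD8 deletion, 2 higher and 7 lower in the CD8 blockade, 1 higher and 5 lower in the CD4 deletion and 0 in the CD4 blockade, where 4 had an unadjusted p under 0.05, DESeq2 called 0 and limma voom 1. Without the ribosomal-rich libraries 4 rose and 1 fell in the CD8 deletion, and 2 rose and 4 fell in the CD8 blockade. The list medians were 1.07, -0.88, -0.46 and -0.27 on the log2 scale. Ctss, the protease that trims the invariant chain, rose by 1.10 ± 0.21, fell by 0.88 ± 0.21 and fell by 1.72 ± 0.21 in the first 3 of these comparisons. March1, a ubiquitin ligase that takes class II molecules off the cell surface, rose by 2.30 ± 0.38, fell by 1.68 ± 0.37 and fell by 1.92 ± 0.30. None of Rfx5, Rfxank and Rfxap, the genes of the RFX complex on which CIITA docks, was called in these 4 comparisons. Rfxank was higher in CD4 than in CD8 cells of floxed mice (0.65 ± 0.18), of deficient mice (0.55 ± 0.18) and of treated mice (0.58 ± 0.18). Rfx5 stayed at 33.2 to 48.6 CPM in all 18 libraries.

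H2-Ob, the beta chain of H2-O, which restrains H2-DM, did not follow the members in CD4 cells. It was at 2.13, 1.66 and 2.49 CPM in floxed CD8, 32.2, 18.9 and 22.3 CPM in deficient CD8 and 3.10, 9.51 and 5.55 CPM in treated CD8 libraries, a rise of 3.57 ± 0.38 (adjusted p = 3.84e-06) and then a fall of 2.16 ± 0.35 by edgeR's quasi-likelihood test. In CD4 cells it rose with the deletion where the class II members fell, from 8.06, 10.4 and 14.7 CPM to 26.7, 26.5 and 29.9 CPM (1.34 ± 0.33, adjusted p = 0.0117, edgeR). Its partner H2-Oa was not called in these comparisons (1.04 ± 0.40 in the CD8 and 0.60 ± 0.41 in the CD4 deletion).

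Markers that separate kinds of dendritic cell gave mixed values. Of 28 further genes of a conventional dendritic cell list (27 tested), edgeR's quasi-likelihood test called 10 higher and 2 lower in the CD8 deletion (median 0.96), 2 higher and 8 lower in the CD8 blockade (median -1.41), 2 higher and 4 lower in the CD4 deletion (median -0.18) and 0 in the CD4 blockade (median -0.49), where 8 had an unadjusted p under 0.05, DESeq2 called 3 and limma voom 1. Without the ribosomal-rich libraries 7 rose and 1 fell in the CD8 deletion, 2 rose and 5 fell in the CD8 blockade and 2 rose and 1 fell in the CD4 deletion. Xcr1 and Clec9a, markers of the cross-presenting subset, did not exceed 2.53 and 3.64 CPM in any CD8 library or 9.45 and 8.20 CPM in any CD4 library. Zbtb46, a transcription factor of conventional dendritic cells, was at 4.97 to 25 CPM in all 18 libraries and was not called in the 4 comparisons. Cd209a, a lectin of monocyte-derived and other dendritic cells, rose by 2.75 ± 0.62 in the CD8 deletion and fell by 2.81 ± 0.63 in the CD8 blockade. Like Flt3 and Kmo it was highest in deficient CD4 libraries (40.4, 66.0 and 92.6 CPM), though its CD4 values were not called. Some genes of the list are made by T cells too. Ccr7, the lymph node homing receptor, rose by 1.73 ± 0.31 in the CD8 and by 1.13 ± 0.31 in the CD4 deletion, and Irf8, a transcription factor that activated T cells also make, fell by 1.08 ± 0.16 in the CD8 deletion.

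Markers of other cells that make class II moved beside the members. The 20 macrophage and monocyte genes summed to 955 to 2329 CPM in floxed CD8, 1816 to 3286 in deficient CD8, 1635 to 1796 in treated CD8, 11766 to 25270 in floxed CD4, 4364 to 5840 in deficient CD4 and 4280 to 6146 CPM in treated CD4 libraries, and none of the 20 was at 0 in any group. By edgeR's quasi-likelihood test 9 rose and 0 fell in the CD8 deletion (median 1.18), 1 rose and 14 fell in the CD8 blockade (-1.57), 0 rose and 15 fell in the CD4 deletion (-2.03) and 0 were called in the CD4 blockade (-0.09), where 1 had an unadjusted p under 0.05 and neither DESeq2 nor limma voom called any. The medians had the signs of those of the members. Without the ribosomal-rich libraries 5 rose in the CD8 deletion, 3 fell in the CD8 blockade and 12 fell in the CD4 deletion. Of 10 B cell genes only 3 had enough counts to be tested. The 10 summed to 2.74 to 4.09 CPM in floxed CD8, 11.5 to 14.9 in deficient CD8, 7.23 to 11.2 in treated CD8 and 16.5 to 32.7 CPM in CD4 libraries, and Ebf1, Fcer2a and Cr2 had 0 counts in floxed CD8 cells. In floxed CD4 replicate 3 the B cell genes summed to 29.1 CPM and the class II members to 18335 CPM. Of the 3 tested B cell genes edgeR called 1 higher in the CD8 deletion (median 2.06). It called 0 in the CD4 deletion and in both blockade comparisons. The part of macrophages, monocytes and B cells in the class II values was not tested.

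Melanoma genes went against class II genes in the CD4 deletion but not in the CD8 deletion. The 10 melanoma genes summed to 142 to 171 CPM in floxed CD8, 1235 to 2891 in deficient CD8 and 311 to 1537 in treated CD8 libraries, and to 87.8 to 537, 1699 to 4022 and 393 to 1841 CPM in the floxed, deficient and treated CD4 libraries. In the deletion 9 of 10 rose in CD8 and 7 of 10 in CD4 cells by edgeR's quasi-likelihood test, so they rose beside the class II genes in CD8 cells and against them in CD4 cells. Without the ribosomal-rich libraries 1 rose in CD8 and 4 in CD4 cells. In the blockade comparisons 0 of the 10 melanoma genes were called. The melanoma medians there were -1.59 in CD8 and -1.73 in CD4 cells, where those of the members were -1.83 and -0.58. Their part in the class II values was not tested.

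Some plasmacytoid dendritic cell genes were highest in deficient CD4 cells, as Flt3 and Kmo were. The 9 genes of the list summed to 231 to 386 CPM in deficient CD4 libraries, which overlapped the 207 to 317 CPM in floxed CD4 libraries. Of the 9 genes of that list, 2 rose and 1 fell in the CD4 deletion (median 2.17), 0 rose and 1 fell in the CD4 blockade (median -3.06), 0 rose and 1 fell in the CD8 deletion (0.42) and 0 were called in the CD8 blockade (-0.61) by edgeR's quasi-likelihood test. Ccr9, a homing receptor, was at 74.1, 23.6 and 19.2 CPM in deficient CD4 libraries and did not exceed 10.8 CPM in any other library (2.5 ± 0.62 in the CD4 deletion, adjusted p = 0.0152). Spib, a transcription factor of these cells, was at 23.2, 9.37 and 7.90 CPM there (2.39 ± 0.74, adjusted p = 0.0404). Siglech, their lectin, was at 62.2 CPM in deficient CD4 replicate 1 but at 3.39 CPM in both others. That replicate was the highest of the 18 libraries for each of these genes and also for Flt3 and Kmo. Siglech, Klk1 and Ly6d had 0 counts in treated CD8 cells. Cox6a2 also had its highest mean in deficient CD4 cells, at 4.24 CPM against 0.896 CPM in floxed CD4 cells. Bst2, Runx2 and Tcf4 had other orders, with a highest mean of 165 CPM in floxed CD4 cells for Bst2. For Runx2 and Tcf4 it was 121 and 35.6 CPM, in floxed CD8 cells. Ccr9, Spib, Siglech, Klk1, Ly6d and Cox6a2 were singled out after their values were seen. Their part in the Flt3 and Kmo values was not tested.

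**Figure D4:**
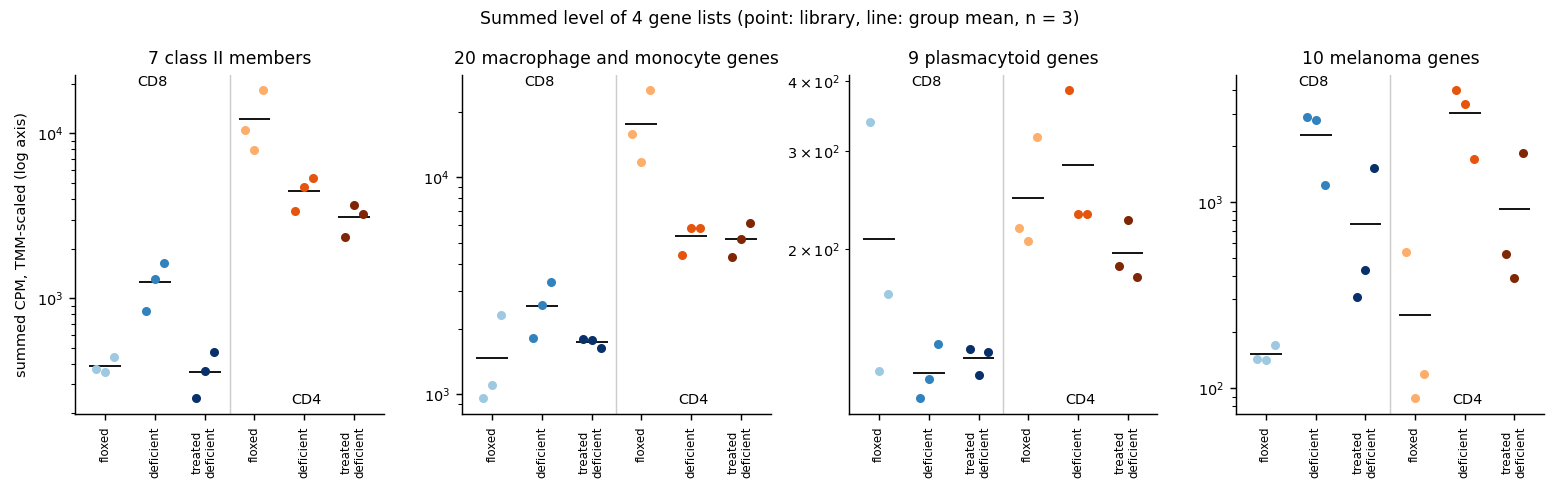
Summed level (CPM, TMM-scaled, log axis, each panel with its own range) of the 7 class II members, 20 macrophage and monocyte genes, 9 plasmacytoid genes and 10 melanoma genes by group. Points are libraries and lines are group means. Class II and macrophage sums are highest in floxed CD4 cells, and melanoma sums have their highest mean in deficient CD4 cells. The plasmacytoid sums of floxed and deficient CD4 cells overlap.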

How the data were processed

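The deposited values are read counts per gene, 1 table per library, made by the authors with featureCounts 1.5.1 (strand option 2) on Ensembl release 87, per the file headers; the gene length column there gave values per kilobase. The submitters' processing notes name GRCm38, STAR and DESeq2 without versions. Of 49671 gene models 49412 got a symbol from GENCODE M21 by ID, and 91.5% had the same start and end there.

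One model over the 18 libraries was fitted in R 4.3.3 with the robust quasi-likelihood method of edgeR 4.0.16, after filterByExpr and TMM scaling. It had 12 residual degrees of freedom, with a common biological coefficient of variation of 0.229. Adjusted p-values are Benjamini-Hochberg values over 14080 genes, called under 0.05, for 11 comparisons. They measure the spread between libraries, which are pools. The counting floor of 3 covers counting error only.

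Alternatives were RLE scaling, ribosomal-like models left out, no filter, a filter of 50 counts in 3 libraries, DESeq2 1.42.0, limma 3.58.1 voom, only the libraries compared, the replicate number as a block, and each library left out. The tumor pool as a block and leaving out the 3 ribosomal-rich libraries were added after the data had been seen. On simulated counts for the CD8 deletion (14080 genes) the fit recovered 75% of genes changed 2-fold and 100% of those changed 4-fold, with 3.31% of its calls false. The simulation gave every gene the same spread, changed only genes with higher mean counts and had no tumor pools. Its rates therefore check the code and need not hold for the members.

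Same-numbered libraries met the threshold for pairing where every pair's deviations had r over 0.1, which was so for treated CD4 against treated CD8 cells (0.103 to 0.289). The values printed for that comparison are still those of the unpaired model, and pairing was tried only as a block. Deficient CD4 against deficient CD8 cells came close (0.093 to 0.164), and in both comparisons 6 of 6 libraries correlated best with their own number. Whether a number marks 1 tumor pool is not stated, and the block left all 10 calls there.

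Members and gene lists were chosen with earlier results of these data known. The rule for names took, from the class II pathway and conventional dendritic cell lists, up to 3 genes per deletion or blockade comparison in order of adjusted p, then H2-Ea-ps, H2-Oa, H2-Ob, Rfx5, Zbtb46, Xcr1, Clec9a, Csf1r, Lyz2, Cd79a and Cd3e, and the 5 genes most like H2-Aa, Ciita, Flt3, Kmo and Itgax. Not all are printed, some genes of the lists are not reported here, and other genes were named after their values were seen.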

Additional observations from a re-analysis of the deposited data

Results flagged for a closer look

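The deletion effect differed between CD8 and CD4 cells for 7 members by edgeR's quasi-likelihood test of the difference itself. The CD8 effect minus the CD4 effect, on the log2 scale, was 3.43 for H2-Aa, 3.14 for H2-Ab1, 3.28 for H2-Eb1, 2.30 for H2-DMa, 3.11 for H2-DMb1, 3.01 for Cd74 and 2.72 for Ciita. For the blockade the main fit called the difference for Itgax alone, at 1.97, and that call was lost without any 1 of 10 libraries. With the replicate number or the tumor pool as a block, 4 and 5 members were called. No explanation was tested.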

How the results depend on the processing

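Of 1800 single values of the 10 members under other settings, 1645 kept direction and side of the threshold, 74 lost a call, 53 gained one and 28 changed sign. The number of members called in the CD4 deletion (6) became 10 with no filter (8 lower, with Flt3 and Kmo higher), 3 without the 3 ribosomal-rich libraries and 1 to 7 with 1 library left out, counting both directions. In the CD4 blockade (2) it became 8 with no filter, 0 without the ribosomal-rich libraries and 0 to 1 with 1 library left out. For treated against floxed CD8 cells (2) it was 1 with limma voom, 1 with only the libraries compared, 1 without the ribosomal-rich libraries and 0 to 2 with 1 library left out. For the blockade difference (1) it was 7 with no filter, 4 with the replicate block, 5 with the tumor pool as a block, 0 without the ribosomal-rich libraries and 0 to 1 with 1 library left out. The other counts stayed within 1.5 times, at 6 to 8 (CD8 deletion, 7 as reported), 6 to 10 (CD8 blockade, 9), 8 to 10 (treated against floxed CD4 cells, 8), 7 to 8 (deletion difference, 7) and 9 to 10 (CD4 against CD8, 10). The replicate block changed no other count by that much. Calls over all tested genes moved as well, given here with no filter, without the ribosomal-rich libraries and with 1 library left out. They were 541, 4 and 0 to 106 in the CD4 blockade (20 as reported). In the same order they were 2082, 1442 and 783 to 1584 in the CD4 deletion (1643), and 665, 50 and 49 to 108 in the blockade difference (113). For treated against floxed CD8 cells (706) they were 1574, 58 and 111 to 1503. Same-numbered libraries passed the pairing threshold only for CD4 against CD8 in treated mice, with those of deficient mice just under it, and edgeR's far smaller p without a filter was not taken as further support.

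Signs changed only for uncalled values. In the CD8 deletion Flt3 was -0.04 with limma voom and -0.49 to 0.71 with 1 library left out, and Itgax -0.05 to 0.61. For treated against floxed CD8 cells with 1 library left out H2-Aa was -0.40 to 0.17, H2-Eb1 -0.49 to 0.06 and H2-Ab1 -0.18 to 0.18, the latter also 0 with no filter. H2-DMb1 was -0.02 with the stricter filter, -0.06 with limma voom, -0.16 without the ribosomal-rich libraries and -0.27 to 0.32 with 1 library left out. Ciita was 0 with RLE scaling, -0.02 with the stricter filter, -0.10 with limma voom and -0.28 to 0.30 with 1 library left out. Kmo was 0.06 without the ribosomal-rich libraries and -0.66 to 0.11 with 1 library left out. In the deletion difference Kmo was -0.64 to 0.19 with 1 library left out, and in the blockade difference Flt3 was 0.14 with limma voom and -1.19 to 0.04 with 1 library left out. Depth limits Flt3 in treated CD8 cells, where 6 counts fell on it in all. The cause of these changes was not tested.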

Other observations

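MHC class I genes, which most cells make, were higher in CD4 than in CD8 cells, as class II genes were, but differed from them in the deletion and blockade. In CD4 against CD8 cells 4 of 7 were called higher in floxed, 5 in deficient and 3 in treated mice, and 0 lower. Of 7 class I genes edgeR's quasi-likelihood test called 0 in the CD8 deletion (median log2 fold change -0.19) and 0 in the CD4 deletion (-0.12), with 2 at an unadjusted p under 0.05 in each. DESeq2 and limma voom each called 0 and 1 there. In the CD8 blockade, where class II fell, 4 of 7 rose, H2-K1 by 0.37 ± 0.11, H2-D1 by 0.45 ± 0.11, Tap1 by 0.48 ± 0.14 and Tap2 by 0.60 ± 0.14, and 2 of 7 without the ribosomal-rich libraries. Class I sums ran from 7543 CPM in a floxed CD8 library to 15651 CPM in a floxed CD4 library. Of 8 listed genes of the interferon gamma route to CIITA, 5 rose and 0 fell in the CD8 deletion. Among the 5 were Ifngr1 (1.08 ± 0.14), Socs1 (1.01 ± 0.15), Irf1 (0.66 ± 0.13) and Jak2 (0.60 ± 0.11). Ifng itself was at -1.09 ± 0.41 there and was not called (adjusted p = 0.0852, edgeR), and in the CD4 deletion it fell by 1.60 ± 0.44, where Ifngr1 (0.56 ± 0.13) and Jak2 (0.36 ± 0.11) rose. These genes were named after their values were seen.

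Co-stimulatory genes of antigen-presenting cells split. Cd40 went the way of the class II members: it rose by 1.42 ± 0.47 in CD8 cells with the deletion, fell by 2.14 ± 0.51 with the blockade, and fell by 1.61 ± 0.39 in deficient CD4 cells (edgeR). Cd80 went the other way in CD8 cells, with -1.80 ± 0.36 in the deletion and 1.44 ± 0.36 in the blockade, and Cd86 rose by 0.71 ± 0.22 in the blockade.

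In 1 library some macrophage genes came apart from class II RNA. In floxed CD8 replicate 3 Csf1r, a macrophage receptor, was at 512 CPM with H2-Aa at 86.7 CPM. Deficient CD4 libraries had 123 to 173 CPM of Csf1r with 861 to 1307 CPM of H2-Aa. The 20 macrophage and monocyte genes summed to 2329 CPM in floxed CD8 replicate 3, against 955 and 1101 CPM in replicates 1 and 2. The macrophage genes C1qa and C1qb stayed low in all floxed CD8 libraries, at 10.1 to 18.4 and 15.6 to 20.6 CPM. Cd3e, a CD3 chain of the T cell receptor complex, was at 465 CPM in floxed CD8 replicate 1 and at 38.0 to 108 CPM in the other 17 libraries.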
